A study of Bos taurus with 8 samples.

Results

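The miR-2284 and miR-2285 entries of cattle were examined in rumen fluid through 10 named mature miRNAs. They are the pair bta-miR-2284aa with bta-miR-2284z, the pair bta-miR-2284ab with bta-miR-2285by, the pair bta-miR-2284y with bta-miR-2285av, the pair bta-miR-2285ak-5p with bta-miR-2285bh, and the single entries bta-miR-2285bc and bta-miR-2285bf. The 4 pairs were chosen by their read counts, which are identical in every library, and the 2 single entries because they are the miR-2285 entries with the most reads. Identity and abundance are therefore given as a description. The tables of the 8 libraries list 565 miRNA entries. A minimum of 10 reads in any 1 library left 377, and all 10 entries passed it. The family as a whole has 36 listed entries, 7 named miR-2284 and 29 named miR-2285, and 19 of them were among the 377. Just outside the choice, bta-miR-2285k followed bta-miR-2285bf with 180 reads against 1476, and bta-miR-2285u and bta-miR-2285bg, with 17 and 15 reads and under the minimum, differed in a single library.

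The libraries came from 4 non-lactating Holstein cows with a rumen cannula, at a mean age of 10 years. Each cow gave rumen fluid on day 7 of an all-forage diet (0% concentrate) and on day 1 of a high-grain (HG) diet with 65% concentrate, 4 h after feeding, which made 4 libraries per diet. Concentrate was raised step by step over 1 week between the diets. Libraries with the same number on both diets were taken as 1 cow, because every cow received both diets and the labels number the sets alike. The libraries held 331864 to 522804 miRNA reads on the forage diet and 300116 to 390774 on the HG diet. Levels are given as reads per 1000000 miRNA reads of the library (RPM), and intervals are 95% Wilson intervals for counting error alone, because amplified reads are not independent molecules. In rumen fluid, RNA from fewer cells of a type and less RNA per cell cannot be told apart.

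MicroRNAs are cut from hairpin transcripts and guide silencing proteins to messenger RNAs, mainly through bases near their 5′ end. The miR-2284 and miR-2285 hairpins are a large repeat-derived family of ruminants, so that many loci encode mature miRNAs that are alike or nearly alike, and for most of them no function is established. A short read of such a family can map to several loci, and its count depends on how the shared read is treated. In RefSeq's gene table (ARS-UCD2.0), which served for names and neighbours alone, 191 of 1032 miRNA genes (18.5%) belong to the family. They are spread over 30 chromosomes. Of the 268 bovine entries among the 377, 12 had the same read counts as another bovine entry in all 8 libraries, and 8 of these 12 are the pairs described here.

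The entry bta-miR-2285bc held more reads than any other of the family, with 5225 over the 8 libraries, and ranked 73 among the 268 bovine entries. It was listed at 1 locus in all 8 libraries, chr3:94548627-94548649 of UMD3.1 on the plus strand, and its reads were the same in the divided count, where a read that maps to several positions is shared equally among them. Its gene MIR2285BC lies inside ORC1, which encodes a subunit of the origin recognition complex of DNA replication. On the forage diet the 4 libraries held 1661, 1679, 1664 and 1630 RPM in the order of their numbers. On the HG diet they held 1739, 1113, 1768 and 1646 RPM. The 7 libraries other than HG replicate 2 lay within 1630 to 1768 RPM, and HG replicate 2 lay below all of them, with an interval of 1005 to 1231 RPM. The diets overlapped. The mean was 1659 ± 20.7 RPM on the forage diet and 1567 ± 307 RPM on the HG diet (SD, n = 4), or 1718 ± 63.6 RPM (SD, n = 3) without HG replicate 2.

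The entry bta-miR-2285bf had 1476 reads and ranked 115. It was listed at 3 hairpins. The hairpin bta-mir-2285bf-2 at chrX:125791353-125791373 on the minus strand stood in 5 libraries, bta-mir-2285bf-1 at chr6:94664420-94664440 on the plus strand in 2, and bta-mir-2285bf-3 in 1, at the same position as bta-mir-2285bf-1. Its divided count was 492 reads, so that each read was divided by 3. In RefSeq, MIR2285BF-1 lies inside FRAS1, a gene of an extracellular matrix protein of basement membranes, and MIR2285BF-2 inside PCYT1B, a gene of phosphatidylcholine synthesis. The forage libraries held 435, 532, 474 and 431 RPM and the HG libraries 490, 378, 409 and 490 RPM. HG replicate 2 was again the lowest, but its interval of 318 to 449 RPM reached the values of other libraries, and the diets overlapped. The mean was 468 ± 46.7 RPM on the forage diet and 442 ± 56.9 RPM on the HG diet (SD, n = 4).

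The entries bta-miR-2284aa and bta-miR-2284z shared 282 reads, equal in reads, divided counts and number of distinct read sequences in all 8 libraries. In each library both were listed at the same hairpin of the bta-mir-2284z group and from the same lower coordinate, with 21 bases for bta-miR-2284aa and 22 for bta-miR-2284z. On the minus strand this coordinate is the 3′ end, so that the listed 5′ ends differed there. The loci were chr5:91263067-91263088 on the minus strand (3 libraries), chr3:18716637-18716658 on the plus strand (2), chr11:21374978-21374999 on the minus strand (2) and chr5:43233821-43233842 on the plus strand (1), given here for bta-miR-2284z. No library listed bta-miR-2284aa at a hairpin of its own name, although RefSeq holds 4 MIR2284AA genes beside 7 MIR2284Z genes. MIR2284Z-2 lies inside SOS1, MIR2284Z-5 inside PTPRB and MIR2284Z-6 inside PLEKHA5, while MIR2284Z-4 lies between TCHHL1 and S100A11. The forage libraries held 80.9, 111, 94.3 and 87.4 RPM, and the HG libraries held 100.0, 38.7, 105 and 72.1 RPM. The lowest value belonged to HG replicate 2, whose interval of 22.6 to 66.2 RPM lay below the values of the 7 other libraries, and the diets overlapped. The mean was 93.4 ± 12.9 RPM on the forage diet and 78.9 ± 30.5 RPM on the HG diet (SD, n = 4), or 92.3 ± 17.7 RPM (SD, n = 3) without HG replicate 2. These reads rested on 2 to 4 distinct sequences per library.

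The entries bta-miR-2284ab and bta-miR-2285by shared 75 reads. In all 8 libraries both were listed at the hairpin bta-mir-2284ab on the plus strand, bta-miR-2284ab at chr6:103797778-103797798 and bta-miR-2285by 1 base further on, at chr6:103797779-103797800. The locus lies inside AFF1, a gene of a subunit of the super elongation complex of transcription. RefSeq also holds a separate gene MIR2285BY, between TNFAIP8L1 and SEMA6B, and no library listed bta-miR-2285by at a hairpin of that name. The 4 forage libraries held 22.3, 32.5, 24.1 and 36.2 RPM, from 11, 17, 11 and 12 reads. The 4 HG libraries held 16.7, 17.8, 20.5 and 12.9 RPM, from 5, 6, 8 and 5 reads. Every HG library lay below every forage library. Only forage libraries reached the minimum of 10 reads, so the pair was kept through the diet on which it was higher. The separation is therefore a description and not a test. Over the 377 entries, 10 (2.65%) had all HG libraries below all forage libraries, and these 2 names are a single set of reads. In 5 entries (1.33%) the reverse held, none of them among the 10. The mean of the pair was 28.8 ± 6.65 RPM on the forage diet and 17.0 ± 3.15 RPM on the HG diet (SD, n = 4), from 51 and 24 reads. The counting intervals of single libraries overlapped, for example 12.4 to 39.9 RPM in forage replicate 1 and 10.4 to 40.4 RPM in HG replicate 3.

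The entries bta-miR-2284y and bta-miR-2285av shared 98 reads, of which 61 lay in HG replicate 2. The forage libraries held 12.1, 23.0, 4.39 and 21.1 RPM, from 6, 12, 2 and 7 reads. The HG libraries held 6.66, 181, 0 and 20.6 RPM, from 2, 61, 0 and 8 reads. The 0 of HG replicate 3 has a limit of 7.68 RPM by the 3 reads that a count of 0 allows, and its Wilson interval ends at 9.83 RPM. HG replicate 2, with an interval of 141 to 233 RPM, stood above all 7 others, which reached at most 23.0 RPM and overlapped between diets. Each name was listed at 5 hairpins of the bta-mir-2284y group over the 7 libraries with reads, and both names at the same hairpin in 6 of them. In HG replicate 2 the locus was chr7:60546384-60546404 on the plus strand for bta-miR-2284y, where RefSeq places MIR2284Y-7 inside STK32A. No library listed bta-miR-2285av at a hairpin of its own name.

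The divided counts tied bta-miR-2284y to other entries of the family. The entry bta-miR-2284x, which is not among the 10 but ranked 3 in the family, at chr1:3607767-3607787 on the minus strand and inside TIAM1, held 1377 reads. Its reads exceeded its divided count by the same number as those of bta-miR-2284y, within 0.02 reads, in 6 of the 7 libraries in which bta-miR-2284y had reads. In HG replicate 2 the excess was 57.59 reads for each, from 293 reads of bta-miR-2284x and 61 of bta-miR-2284y. In forage replicate 3 the excesses were 2.87 and 1.87 reads. In HG replicate 2 the entry bta-miR-2285au had 59 reads and a divided count of 3.28, a division by 18. The 2 reads by which bta-miR-2284y exceeded bta-miR-2285au made up the remaining 0.13 of its divided count of 3.41, close to a division by 15. Whether the reads behind these equal numbers were the same molecules was not tested, because read sequences were not used here. With as many reads as bta-miR-2284y held taken out, bta-miR-2284x went from 872 to 690 RPM in HG replicate 2. The 7 other libraries then held 299 to 413 RPM. This subtraction assumes that every read of bta-miR-2284y was also counted for bta-miR-2284x.

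**Figure D1:**
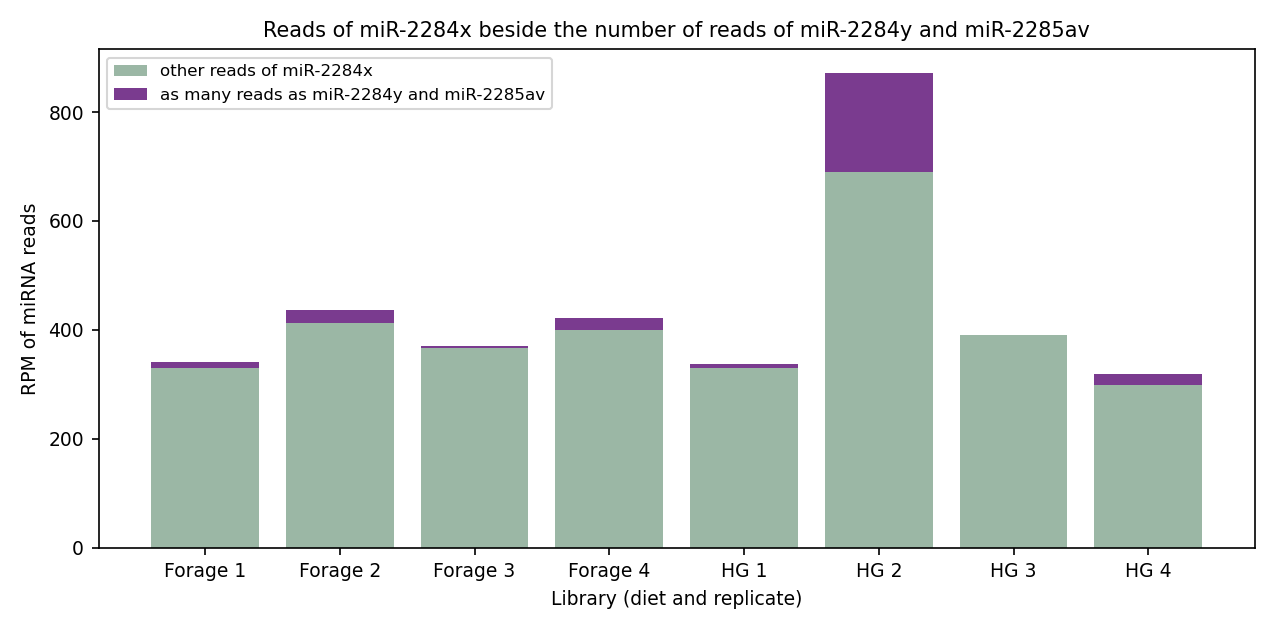
Reads of bta-miR-2284x in each library in RPM of miRNA reads (bar height), with as many reads as bta-miR-2284y held in the same library in purple and the remainder in green. HG replicate 2 reaches 872 RPM, and 690 RPM without the purple part, and the 7 other bars lie between 320 and 436 RPM.

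The entries bta-miR-2285ak-5p and bta-miR-2285bh shared 88 reads, all in forage replicate 1, where they made 178 RPM with an interval of 145 to 219 RPM. The other libraries held none. The limit of 3 reads is 5.74 to 9.996 RPM in these libraries and 2.12 RPM in the 4 HG libraries together, and the Wilson intervals of the single libraries end at 7.35 to 12.8 RPM. Unlike the other pairs, these were listed at separate hairpins of their own names, bta-miR-2285bh at chr9:62244985-62245006 and bta-miR-2285ak-5p at chr15:29735556-29735577, both on the minus strand. The first lies between RNGTT and CNR1, and the second inside IFT46, a gene of intraflagellar transport in cilia. The divided count was 44 reads for each. The 88 reads came from 2 distinct read sequences. In forage replicate 1, the 22 other entries within 20 reads of the pair, a range chosen after the values were seen, held 4 to 13 distinct sequences with a median of 7. In HG replicate 2, bta-miR-2284y had 2 distinct sequences for 61 reads. Leaving out bta-miR-2285av and bta-miR-2285au, the 33 other entries within 20 reads of it there held 1 to 10, with a median of 4. Of these 33, 9 held at most 2, so that bta-miR-2284y lay within their range. The entry bta-miR-2285au had 1 distinct sequence for 59 reads there. The entry bta-miR-2285bc had 14 to 26 distinct sequences per library.

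**Figure D2:**
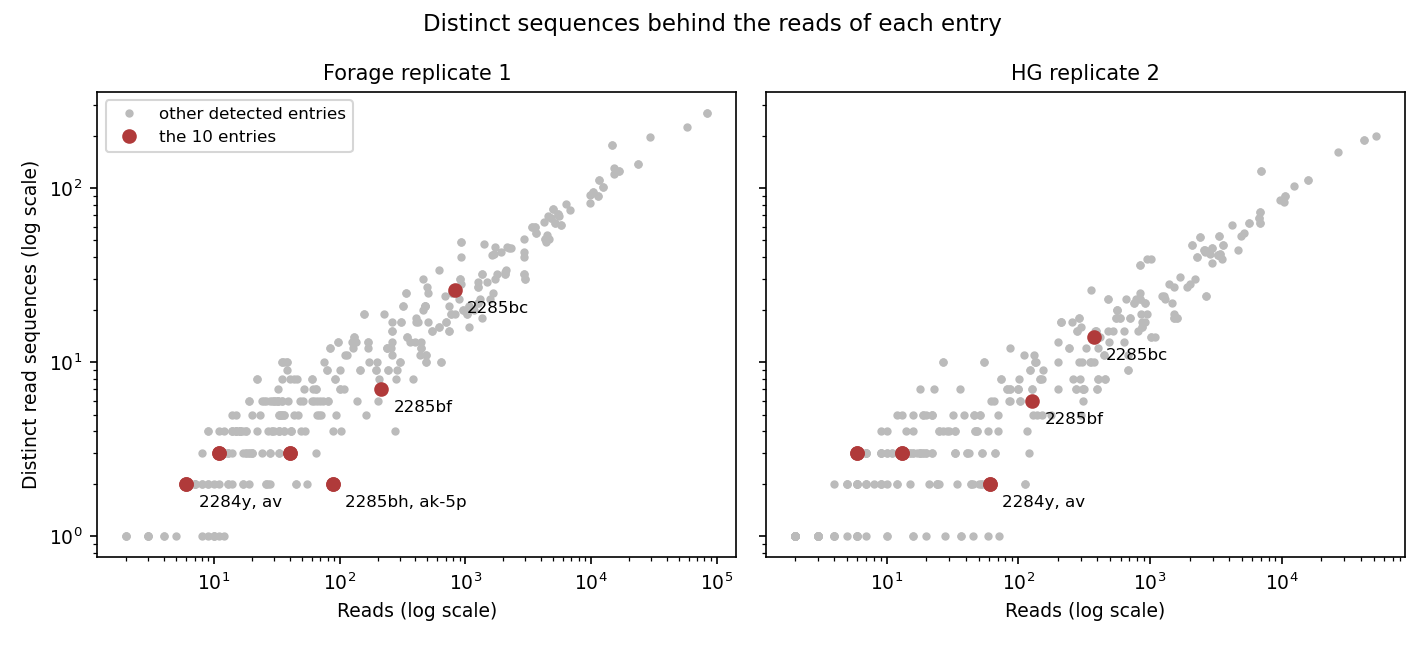
Distinct read sequences against reads for each detected entry with reads in forage replicate 1 (left) and HG replicate 2 (right), both axes on a log scale, with the 10 entries in red. The pair bta-miR-2285ak-5p with bta-miR-2285bh lies at 88 reads and 2 sequences, and bta-miR-2284y with bta-miR-2285av lie at 61 reads and 2 sequences in HG replicate 2.

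The plot of the reads in each library shows the 6 read sets side by side. By mean level in undivided reads they ran from bta-miR-2285bc over bta-miR-2285bf and the pair bta-miR-2284aa and bta-miR-2284z to the 3 rarest pairs. In the libraries other than forage replicate 1 and HG replicate 2, bta-miR-2284ab with bta-miR-2285by (12.9 to 36.2 RPM) and bta-miR-2284y with bta-miR-2285av overlapped in their ranges. Within libraries, the first of these pairs lay above the second in the 4 forage libraries and in HG replicates 1 and 3, and below it in HG replicates 2 and 4. The counting intervals of both pairs overlapped in all libraries but HG replicates 2 and 3. In the divided counts of the listed rows, which may cover 1 of several loci of an entry, bta-miR-2284aa and bta-miR-2284z each stood at 5.73 RPM on the forage diet and 5.52 RPM on the HG diet, below the 14.2 and 8.48 RPM of bta-miR-2284ab and bta-miR-2285by.

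**Figure D3:**
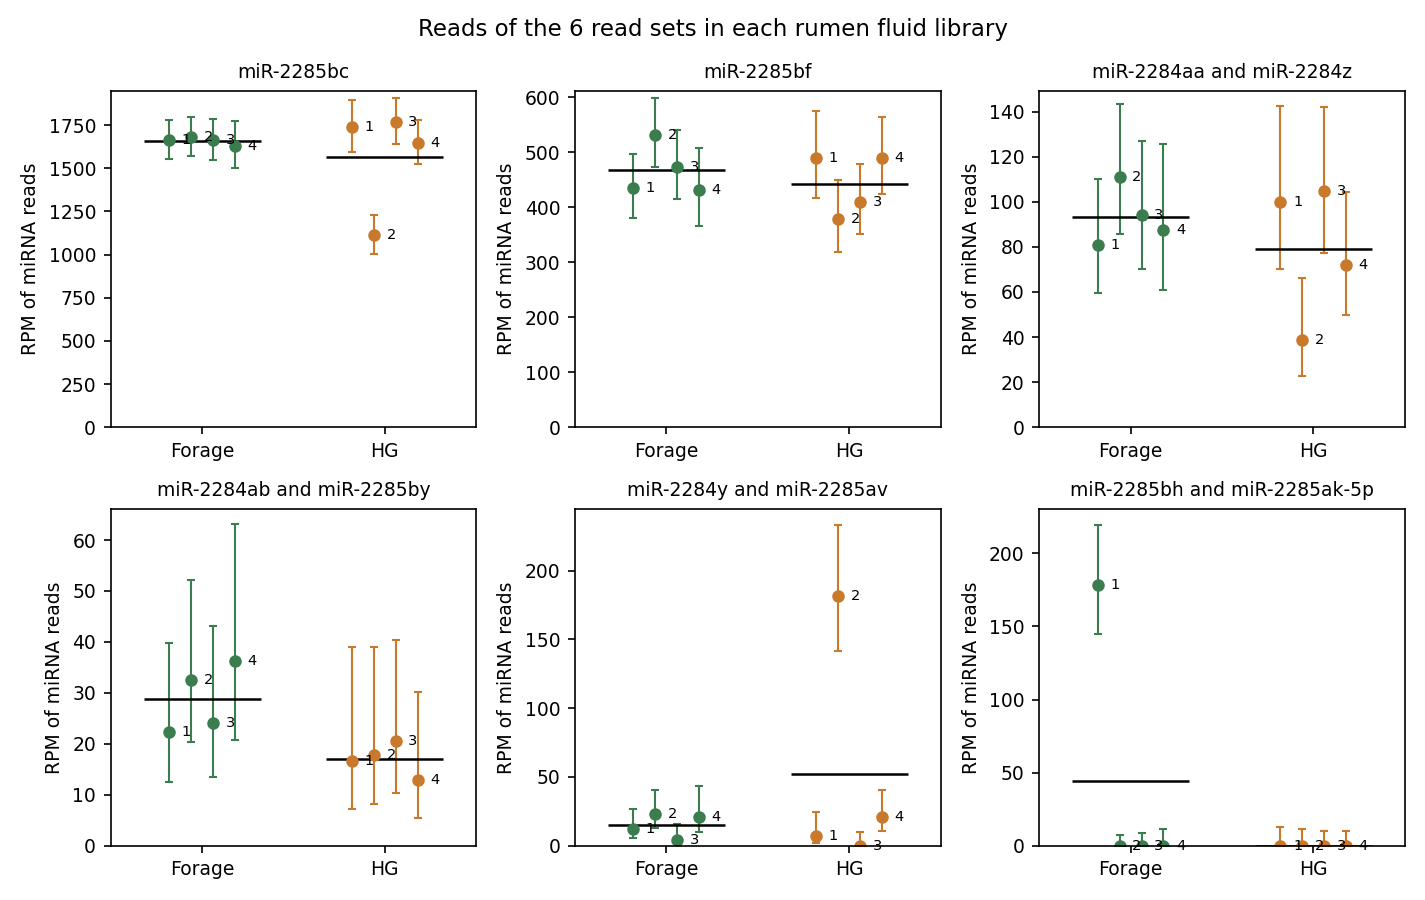
RPM of miRNA reads of the 6 read sets in each library (points, numbered by replicate), with 95% Wilson intervals for counting error (vertical bars) and the mean of each diet (horizontal lines). HG replicate 2 is the lowest library for bta-miR-2285bc at 1113 RPM and the highest for bta-miR-2284y with bta-miR-2285av at 181 RPM, and forage replicate 1 alone holds bta-miR-2285ak-5p with bta-miR-2285bh.

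HG replicate 2 also stood apart in miRNAs that mark cell types. The erythrocyte list (bta-miR-451, bta-miR-144 and bta-miR-486) made 15% of miRNA reads there and 19.8% to 20.6% in the 7 others, with 3 of 3 entries below all others. The leukocyte list made 1.70% against 2.13% to 2.18%, with 3 of 4 entries below and 1 above. The epithelium list, with 7 of its 8 entries detected and bta-miR-203 not, made 3.12% against 2.21% to 2.28%, with 5 entries above and 1 below. The list of smooth muscle and stroma made 8.97% against 6.49% to 7%, with 3 of 5 entries above. Their part in the levels of the family was not tested. Over the 8 libraries, the entries outside the family whose RPM kept the steadiest ratio to bta-miR-2285bc were bta-miR-486 of the erythrocyte list (SD of the log2 ratio 0.05) and bta-miR-223 of the leukocyte list (0.06), out of 192 entries compared. For bta-miR-2285bf they were bta-miR-125b (0.06) and bta-miR-98 (0.10), and for bta-miR-2284aa with bta-miR-2284z they were bta-miR-11986b (0.20) and bta-miR-532 (0.21). These ratios describe 8 libraries that include HG replicate 2, and are not a test.

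Reads and divided counts stood apart to a different extent in each entry. Summed over both names of a pair, the divided counts came to all 88 reads of bta-miR-2285ak-5p with bta-miR-2285bh and 99.1% of the 75 reads of bta-miR-2284ab and bta-miR-2285by. They came to 33.3% of the reads of bta-miR-2285bf, 13% of those of bta-miR-2284aa and bta-miR-2284z, and 12.9% of those of bta-miR-2284y and bta-miR-2285av. In the last 2 pairs each read was divided by 15.4 and 15.5 on average over the libraries, while 2 names are listed. Each table lists 1 locus per entry and library, and whether the divided count covers that locus alone or every locus of the entry is not stated. For bta-miR-2285bf, the divided count of 492 is its 1476 reads divided by 3. Its 3 hairpins were listed at 2 positions, so this division does not settle the question. The shares above are therefore shares in the listed rows, and a share under 100% does not show that reads were lost. Of the 283 distinct profiles of read counts among the 377 entries, 34 came to under 50% of their reads in this way. The divided counts of all listed entries summed to 77.9% to 79.6% of the miRNA reads of each library. A mark of duplication in the deposited tables stood in every library with reads at 5 of the 10 entries and in 1 library at bta-miR-2285by, against 84 of all 377 entries marked in at least 1 library. The authors' normalized table, made from divided counts rounded to whole reads, gives 0 for bta-miR-2284y and bta-miR-2285av in 4 libraries in which they had 2 to 7 reads. No other of the 377 entries has reads in a library and a normalized value of 0 there.

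**Figure D4:**
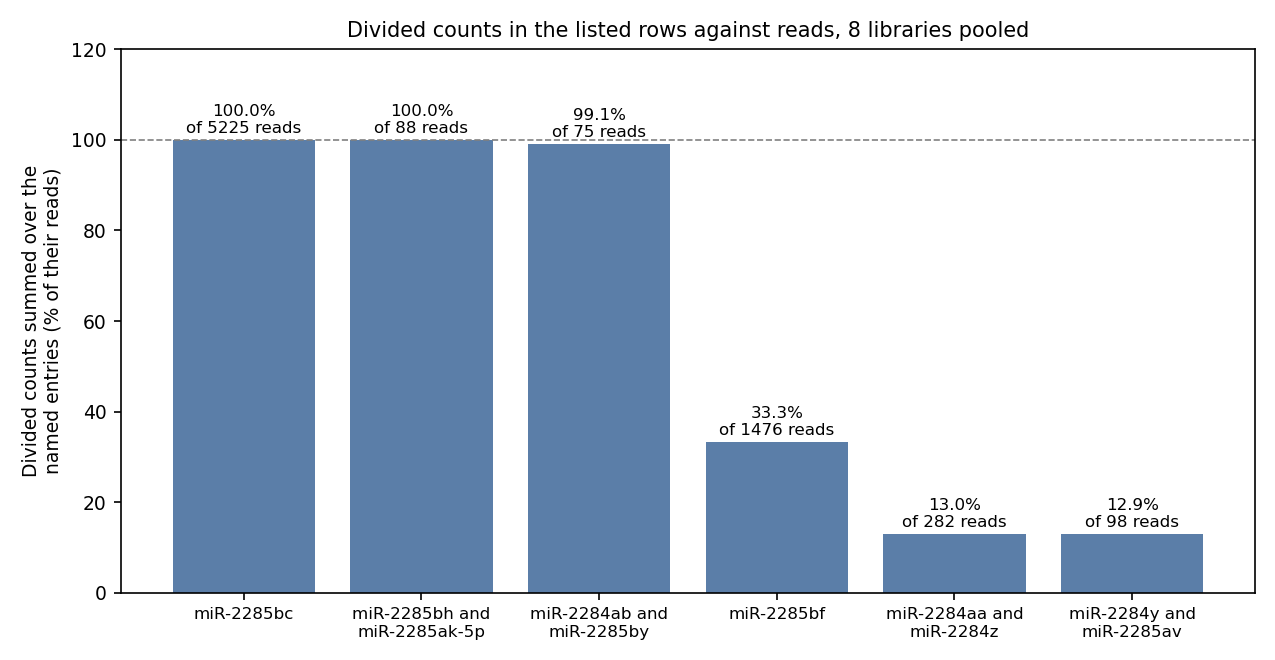
Divided counts summed over the named entries as a percentage of their reads, over the 8 libraries pooled, for the 6 read sets (bars, with the number of reads above each). The share is 100% for bta-miR-2285bc and falls to 13% and 12.9% for the last 2 pairs.

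Outside the 10, the entries of the family with the most reads were bta-miR-2284x (1377), bta-miR-2285k (180) and bta-miR-2285t (125). Counted by name, the 36 entries of the family summed to 9993 reads, and with entries of equal counts in all libraries counted once to 9437. Equal counts need not be the same reads, since some of the rare entries merged in this way held undivided reads. The divided counts in the listed rows summed to 7723.3, with the same limit. The share of bta-miR-2285bc was 55.4% of the reads counted once and 67.7% of the divided reads. By name, the family's share of miRNA reads was 0.313% ± 0.0155 on forage and 0.305% ± 0.0107 on the HG diet (SD, n = 4), and the diets overlapped. In HG replicate 2 the family total by name was within the range of the forage libraries, with 3168 RPM against 2982 to 3307, and above the other HG libraries (2909 to 3071). The divided total there was 2068 RPM, below the forage libraries (2384 to 2527) and below the other HG libraries (2298 to 2499). The share of bta-miR-2285bc in the total by name was 35.1% in HG replicate 2 and 50.2% to 57.6% in the others.

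Whether the diet changed the entries was asked of edgeR's quasi-likelihood test over all 377 entries, with the cow as a block and Benjamini-Hochberg adjustment. No entry passed an adjusted p of 0.05 (0 of 377, 0.0%), 9 (2.39%) had an unadjusted p under 0.05, and DESeq2 also called 0, with 3 under an unadjusted p of 0.05. In the family, 0 of the 19 entries passed, 7 had a positive and 12 a negative log2 fold change, and the median was −0.05. Over all 377 entries 210 were positive and 167 negative, with a median of 0.03. Without replicate 2 the family had 9 positive and 7 negative values and a median of 0.05. The 3 family entries with an unadjusted p under 0.05 had all their reads in 1 library, namely bta-miR-2285au in HG replicate 2 and bta-miR-2285ak-5p with bta-miR-2285bh in forage replicate 1. The log2 fold change was −0.05 (standard error 0.10, edgeR adjusted p = 0.880) for bta-miR-2285bc and −0.04 (standard error 0.12, adjusted p = 0.924) for bta-miR-2285bf. It was −0.24 (standard error 0.30, edgeR adjusted p = 0.830) for bta-miR-2284aa and bta-miR-2284z. For bta-miR-2284ab and bta-miR-2285by it was −0.68 (standard error 0.38, edgeR adjusted p = 0.788), with the HG library the lower one in all 4 cows, and −0.85 to −0.45 over 13 alternatives with adjusted p of 0.678 to 0.999. For bta-miR-2284y and bta-miR-2285av it was 1.06 (standard error 0.95, edgeR adjusted p = 0.788), while the HG value was lower in 3 of 4 cows, and the log2 fold change ran from −0.69 to 2.08 over 11 alternatives with adjusted p of 0.678 to 0.999. It was 0.14 with DESeq2, 2.08 with divided counts, and −0.69 without the block and without HG replicate 2. Without replicate 2 of both diets, the log2 fold change was 0.06 for bta-miR-2285bc, 0.04 for bta-miR-2285bf and 0.08 for bta-miR-2284aa with bta-miR-2284z. In that fit edgeR called bta-miR-2285ak-5p with bta-miR-2285bh lower on the HG diet (adjusted p = 0.0281, against 0.788 with all 8 libraries and 0.0281 to 0.999 over the alternatives), 2 of 361 entries (0.554%). All their reads lay in forage replicate 1, and without replicate 1 they had no reads. No fold change is given for them.

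**Figure D5:**
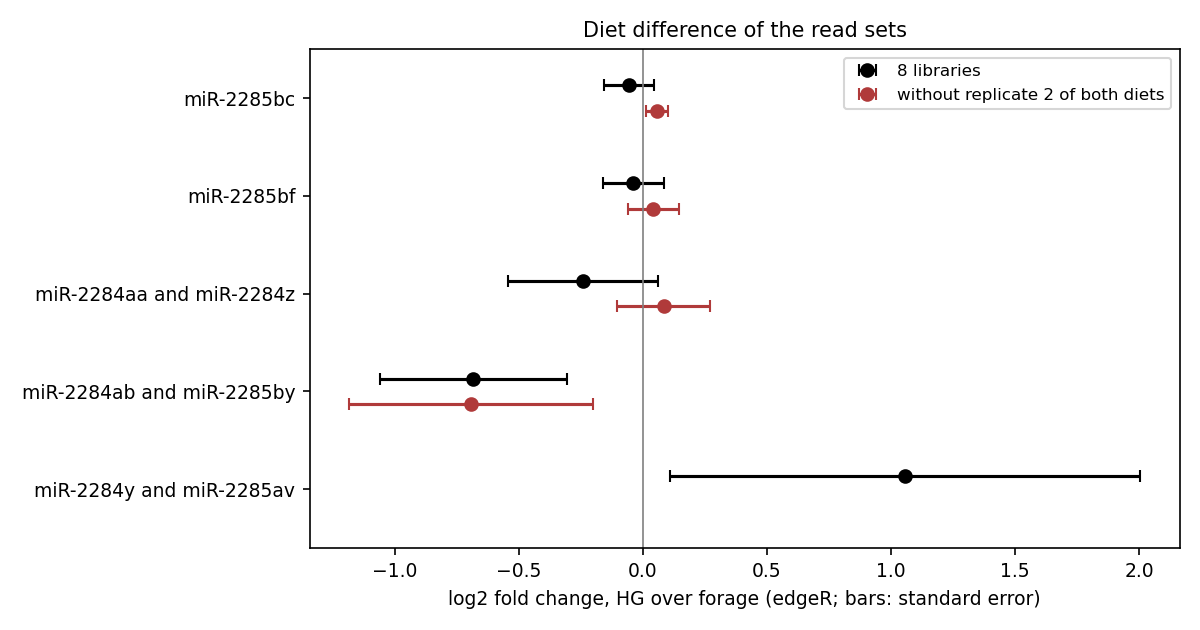
Log2 fold change on the HG diet over the forage diet from edgeR with its standard error (bars), for the 5 read sets with reads on both diets, over 8 libraries (black) and without replicate 2 of both diets (red). The pair bta-miR-2284ab and bta-miR-2285by lies at −0.68 and −0.69, the others other than bta-miR-2284y and bta-miR-2285av cross to the positive side without replicate 2, and that pair fell under the minimum of 10 reads there.

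No single host gene held the positions of all the entries, while names listed at the same hairpin share its host gene where it has one. Of the 17 hairpins listed for the 10 entries, 16 were matched in RefSeq, and 12 of these lie inside a protein-coding gene. Over the whole family this holds for 125 of 191 genes (65.4%), and over the other miRNA genes for 549 of 841 (65.3%). The family's share inside genes was thus close to that of other miRNAs.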

How the data were processed

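Small RNA of 8 rumen fluid libraries was sequenced. The authors trimmed adapters with Skewer, discarded reads under 15 nucleotides or under a mean PHRED score of 20, and ran sRNAbench with Bowtie (2 mismatches) on the cow genome UMD3.1 with miRBase 22. Demultiplexing with bcl2fastq 2.20 is named in the submitters' notes. The authors deposited read counts per mature entry, in which a shared read is counted in full at each entry, and expected counts, in which it is divided by the number of positions it maps to (here divided counts), beside the number of distinct sequences. The deposited score RPM of miRNA reads and the deposited RPM of all reads gave the library totals. The deposited normalized signal equalled the divided counts, rounded to whole reads and scaled by 1 factor per library, for 377 of 377 entries (tolerance 0.1%). Each table gives 1 locus per entry, and whether its divided count covers that locus or all loci of the entry is not given in the sources used here.

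Entries that reached 10 reads in any 1 library were tested with edgeR 4.0.16 (R 4.3.3, TMM, glmQLFit and glmQLFTest, two-sided, cow plus diet as in the study's model). Standard errors are the size of the log2 fold change over the square root of F. DESeq2 1.42.0 was an alternative. The script was tested on simulated data. Python 3.11.15 did the other steps. Nothing in the labels beyond the number ties libraries to cows, and the deviations of same-numbered libraries from their diet means correlated at 0.04, −0.07, 0.07 and −0.00. Entries named are the 10 members and other entries of the family whose divided counts were set beside theirs or that are among the 3 with the most reads. Also named are the 2 entries outside the family of steadiest ratio for each read set with at least 10 reads in every library. The marker entries came from lists for cell types, and bta-miR-2285u and bta-miR-2285bg were picked once their values were known. The members and lists were chosen with earlier results of these data known. The sequences of the mature miRNAs were not used here.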

Additional observations from a re-analysis of the deposited data

Results flagged for a closer look

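Dixon's test was applied to the 4 libraries of each diet for the 6 read sets and the family total. In 12 of these groups several libraries held reads, and chance alone marks about 1 group in 20. It marked 1 of the 12, in which bta-miR-2284y and bta-miR-2285av stood at 181 RPM in HG replicate 2. In forage replicate 1, bta-miR-2285ak-5p with bta-miR-2285bh stood at 178 RPM while the other forage libraries held no reads, which fixes Dixon's ratio at 1, so that this value is a description and not a test.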

How the results depend on the processing

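Over 13 other fits of the diet test, the number of entries called, over all entries and in the family, was 0 in 12. Without replicate 2 it was 2, namely bta-miR-2285ak-5p with bta-miR-2285bh, lower on the HG diet. These 2 names are 1 set of reads, which lay in forage replicate 1 alone. Leaving out 1 replicate number at a time gave 0 to 2 calls in all. The alternatives were DESeq2, other size factors, no minimum, a minimum in 4 libraries, divided counts, each profile of read counts once and no replicate block. Without the replicate block 0 entries were called, and the log2 fold change was −0.69 for bta-miR-2284ab with bta-miR-2285by and 1.92 for bta-miR-2284y with bta-miR-2285av. Leaving out 1 replicate number at a time gave −0.105 to 0.058 for bta-miR-2285bc, −0.125 to 0.043 for bta-miR-2285bf and −0.443 to 0.083 for bta-miR-2284aa with bta-miR-2284z. The direction turned in each case without replicate 2, and for bta-miR-2285bf also without replicate 3 (0.019). Without the block and without HG replicate 2, a fit added after the data were seen, it turned for bta-miR-2285bc (0.041) and for bta-miR-2284y with bta-miR-2285av (−0.69). The causes were not tested. The pair bta-miR-2284y and bta-miR-2285av could not be fitted without replicate 2, where fewer than 10 reads per library were left. As a share of all reads the family made 0.0554% ± 0.0315 on the forage diet and 0.0418% ± 0.0290 on the HG diet (SD, n = 4), with overlapping ranges of 0.0202% to 0.0969% and 0.0250% to 0.0853%, and 0.0273% on the HG diet without HG replicate 3. Leaving out 1 library gave 0.307% to 0.318% of miRNA reads on the forage diet and 0.301% to 0.310% on the HG diet. Reads of 5 to 17 per library limit bta-miR-2284ab and bta-miR-2285by.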
